A study of Mus musculus with 10 samples.

Results

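The unfolded protein response and endoplasmic reticulum (ER) folding genes were taken as 36 named genes, and all 36 were among the 22815 gene symbols counted in mouse lower-airway mast cells. They comprised 4 genes for the sensors and the transcription factor XBP1, 6 of the ATF4 arm, 9 chaperones and cochaperones, 7 lectins and disulfide-forming enzymes, 8 genes of ER-associated degradation and 2 subunits of the translocon. Of the 36, 33 passed edgeR's filter on low counts and were tested, and the exceptions were Trib3, Chac1 and Derl3.

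The cells came from wild-type C57BL/6 mice of 5 to 7 weeks and were sorted by flow cytometry as 2 mast cell populations, named B7hi and B7low in the labels. Mice received intranasal house dust mite extract (HDM), an allergen preparation, at 3 µg in 20 µL of saline 2 times a week for 3 weeks, or 20 µL of saline alone. The 10 bulk libraries were B7hi with HDM (n = 3), B7low with HDM (n = 3), B7hi with saline (n = 2) and B7low with saline (n = 2). Libraries were made with SmartSeq2, which amplifies cDNA from poly(A)+ RNA, and whether a library holds cells of 1 mouse or of several is not given in the sources used here, so the p-values rest on library-to-library spread, which may be technical.

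Secretory proteins fold in the ER with the help of chaperones, lectins and disulfide-forming enzymes, and mast cells make such proteins in bulk for their granules. When unfolded protein accumulates, IRE1 (encoded by Ern1) splices Xbp1 mRNA, ATF6 is cleaved to a transcription factor, and PERK (encoded by Eif2ak3) phosphorylates the translation factor eIF2α, which favours translation of ATF4. XBP1 and ATF6 raise chaperone and degradation genes, while ATF4 raises Ddit3, Trib3, Asns, Chac1 and Ppp1r15a, the last of which encodes the phosphatase subunit GADD34 that reverses eIF2α phosphorylation. Kinases other than PERK also phosphorylate eIF2α, so the ATF4 arm also responds to amino acid shortage and other stresses.

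Total counts per library ran from 525983 in B7hi HDM 2 to 1725818 in B7hi saline 2, and a count of 0 therefore allows up to 5.87 and 1.57 CPM (counts scaled to library size), taking 3 counts as the limit and covering counting error only. Levels below are CPM of the library size scaled by TMM, edgeR's trimmed-mean normalisation. The library size included the ribosomal RNA precursor Rn45s. Its share of the counts was 22.7 to 26.3% in B7hi HDM and 21.9 to 24.9% in B7low HDM. With saline it was 19.7 and 21.6% in B7hi and 27.2 and 28.9% in B7low. Libraries B7hi HDM 2 and B7low saline 2 stood apart on the second principal component and in the nuclear RNA Kcnq1ot1, which reached 12133 and 6956 CPM there, while the other 8 libraries had 806 to 2794 CPM. The 10 markers of the labelled cell type, mast cells, summed to 13778 to 80545 CPM, and 7 of the 10 were lower in B7hi than in B7low averaged over challenges (edgeR, adjusted p from 7.7e-07 for the chymase gene Cma1 to 0.032 for Mitf). Macrophage and monocyte markers summed to at most 17.6 CPM, with C1qa and C1qb at 0 in every library. The 4 basophil markers summed to 1154 to 2838 CPM, with Mcpt8 and Ifitm1 higher and Prss34 and Cd200r3 lower in B7hi averaged over challenges (edgeR, adjusted p from 3.5e-07 to 0.022). B cell markers summed to 5.63 to 19.2 CPM in B7hi HDM and 79.0 to 565 CPM in B7low HDM, with Cd79a, Cd79b and Ms4a1 called lower in B7hi with HDM (edgeR, adjusted p from 0.0065 to 0.031), and their part in the population differences below was not tested. Plasma cell markers reached 297 CPM and T cell markers 154 CPM in B7hi saline 2. Epithelial markers summed to 10.5 to 176.8 CPM and endothelial markers to 59.4 to 370 CPM. The highest epithelial sum, in B7hi saline 1, came from Cdh1 alone, which was higher in B7hi averaged over challenges (edgeR, adjusted p = 0.00015). In bulk libraries, fewer cells of a type and less RNA per cell cannot be told apart.

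Per kilobase of annotated exon, Ppp1r15a had the highest mean level over the 10 libraries, at 316 CPM per kb, followed by the chaperone BiP (encoded by Hspa5) at 279 CPM per kb. The protein disulfide isomerase gene P4hb followed at 140.5, its relative Pdia3 at 127, the lectin chaperone calnexin (Canx) at 118, Atf4 at 114 and the ER HSP90 gene Hsp90b1 at 102 CPM per kb. The sensors lay in the lower part of this order, with Atf6 at 6.54, Ern1 at 2.88 and Eif2ak3 at 1.18 CPM per kb, while Xbp1 had 40.5 CPM per kb. The lowest 4 besides Eif2ak3 were Asns at 2.15, Trib3 at 1.3, Chac1 at 1.04 and Derl3 at 0.368 CPM per kb. The ATF4 arm thus held both the highest member of all and 3 of the lowest 5.

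**Figure D1:**
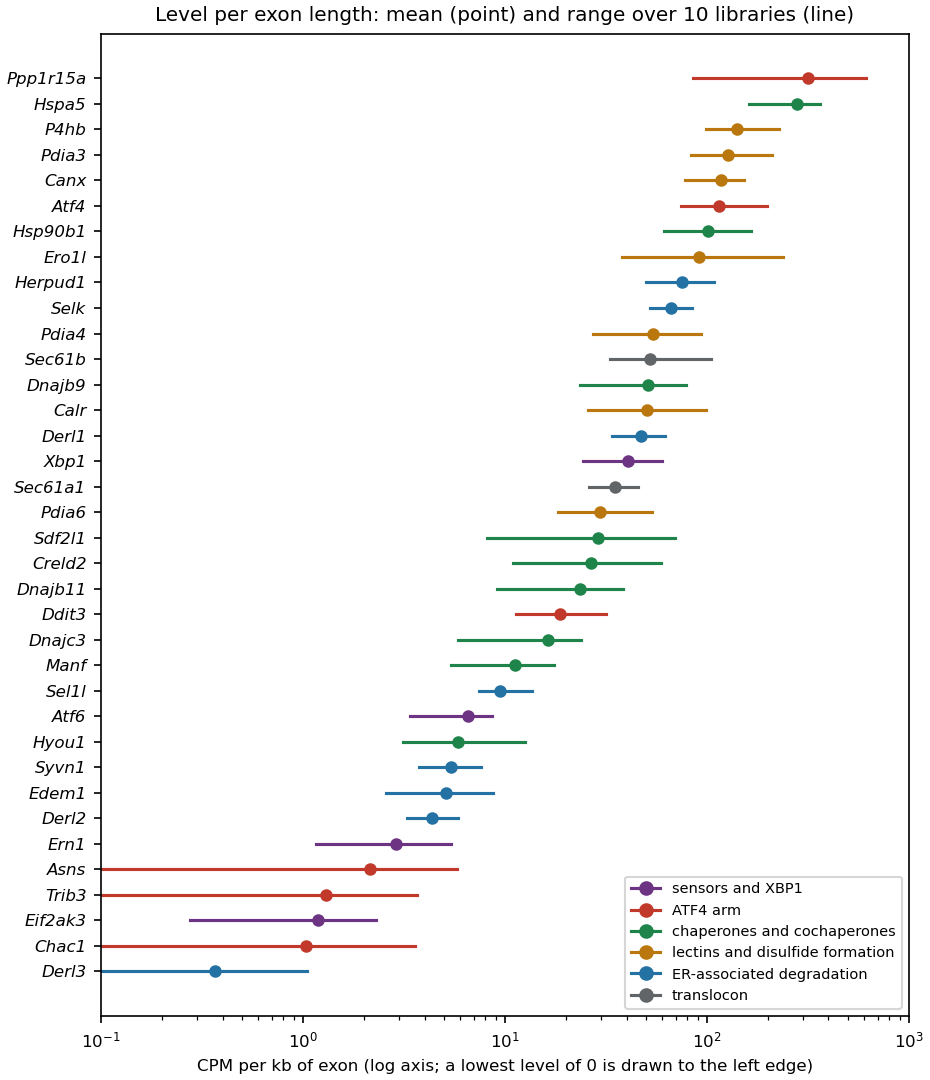
Level of each of the 36 members per kilobase of annotated exon (log axis), with the mean over 10 libraries as a point, the range as a line and the branch as the colour. Ppp1r15a and Hspa5 lead at 316 and 279 CPM per kb, and the sensors Atf6, Ern1 and Eif2ak3 lie at 6.54, 2.88 and 1.18.

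B7hi and B7low mast cells differed in a few of these genes. Averaged over the challenges, 3 of the 33 tested members were lower in B7hi (Ppp1r15a, Ddit3 and Atf4, all of the ATF4 arm) and 2 were higher (the ER oxidase gene Ero1l and the translocon gene Sec61b) by edgeR's quasi-likelihood test at an adjusted p of 0.05. Over all 10533 genes tested, 6.08% were called lower and 5.8% higher in the same comparison, so the members' share of calls was near that of all genes. With HDM alone 1 member was called lower (background 2.15%) and 0 higher (0.693%), and with saline alone 1 was called lower (background 3.64%) and 0 higher (2.91%), in each case Ppp1r15a. At an unadjusted p of 0.05, 6 of the 33 members passed with HDM, where 1433 of the 10533 genes did, and 5 passed with saline, where 2237 genes did. Only Ppp1r15a was called within each challenge, so the other 4 calls rest on the average over challenges.

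Among the sensors none was called between populations. Ern1 had 44.4, 15.7 and 37.7 CPM in B7hi HDM and 9.49, 9.76 and 20.2 CPM in B7low HDM, then 29.5 and 26.1 CPM in B7hi saline and 26.2 and 16.7 CPM in B7low saline. B7hi HDM 2, the shallowest library, fell within the B7low range, so the populations overlapped with HDM, and with saline B7hi saline 2 and B7low saline 1 met at 26.1 and 26.2 CPM. The log2 difference for Ern1 was 1.32 ± 0.46 (SE) with HDM (edgeR, adjusted p = 0.17) and 0.85 ± 0.37 averaged (adjusted p = 0.15), and neither passed.

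Atf6 had 80.0, 31.3 and 69.2 CPM in B7hi HDM, 71.8, 54.0 and 65.7 CPM in B7low HDM, 65.7 and 48.6 CPM in B7hi saline, and 40.2 and 76.9 CPM in B7low saline. All 4 groups overlapped, and the averaged log2 difference between populations was -0.04 ± 0.27 (edgeR, adjusted p = 0.95). Eif2ak3 had 13.8, 3.91 and 9.59 CPM in B7hi HDM, 6.78, 12.4 and 4.42 CPM in B7low HDM, 8.31 and 6.79 CPM in B7hi saline, and 3.5 and 1.67 CPM in B7low saline. The B7low saline libraries held 3 counts of this gene in all and sat below every other library, and both were at or under their 3-count limits. Against them, the ratio for B7hi saline was 2.89 with a counting interval of 0.878 to 15, and that for B7low HDM was 3.13 with an interval of 0.978 to 16.

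Xbp1 was much more abundant, with 149, 135 and 127 CPM in B7hi HDM, 125, 194 and 127 CPM in B7low HDM, 79.4 and 109 CPM in B7hi saline, and 178 and 93.6 CPM in B7low saline. Both B7hi saline libraries lay below all 3 B7hi HDM libraries, but the 2 populations overlapped with either challenge. Its averaged log2 difference between populations was -0.32 ± 0.22 (edgeR, adjusted p = 0.38). Gene counts do not separate spliced from unspliced Xbp1 mRNA, so the activity of IRE1 was not measured.

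In the ATF4 arm, 3 of the 4 tested genes were called lower in B7hi cells averaged over challenges. The other, Asns, was fitted higher in B7hi and was not called (edgeR, adjusted p = 0.17). Ppp1r15a had 688, 642 and 433.5 CPM in B7hi HDM and 1582, 1171 and 1095 CPM in B7low HDM, then 250.2 and 434 CPM in B7hi saline and 1801 and 1179 CPM in B7low saline. The lowest B7low library, at 1095 CPM, lay above the highest B7hi library, at 688 CPM, so the populations did not overlap with either challenge. Over all genes tested, 4.94% had all 5 B7hi libraries below all 5 B7low libraries and 4.46% had them all above. The share separated within a single challenge, on fewer libraries, was not counted.

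Ppp1r15a averaged 588 ± 136 CPM in B7hi HDM and 1283 ± 262 CPM in B7low HDM (SD, n = 3 each), a log2 difference of -1.13 ± 0.28 (SE; edgeR, adjusted p = 0.038). With saline its mean was 342 ± 130 CPM in B7hi, against 1490 ± 440 CPM in B7low (SD, n = 2 each), and the log2 difference was -2.12 ± 0.35 (edgeR, adjusted p = 0.0015). Averaged over challenges B7hi cells had 0.325 times the B7low level, at a log2 difference of -1.62 ± 0.22 (edgeR, adjusted p = 0.00014). The call with HDM was lost when any 1 of the 6 HDM libraries was left out (adjusted p up to 0.2), with log2 differences between -1.25 and -0.93, while the saline and averaged calls held in every alternative run. The gene lies on chromosome 7 at 45522916 to 45526268 (GRCm38, minus strand) and overlaps Tulp2 on the opposite strand, which had at most 2 counts in any library.

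Atf4 encodes the transcription factor that gives the arm its name. It had 244, 176 and 180.1 CPM in B7hi HDM, 365, 297 and 293 CPM in B7low HDM, 235 and 205 CPM in B7hi saline, and 469 and 232 CPM in B7low saline. The populations were separate with HDM but overlapped with saline, where B7low saline 2 lay just under B7hi saline 1. Averaged over challenges the log2 difference was -0.67 ± 0.21 (edgeR, adjusted p = 0.046). The call was lost with library size alone, at -0.54, when genes needed 5 CPM in 2 libraries, at -0.67, and without any 1 of B7hi HDM 2, B7hi HDM 3, B7low HDM 1, B7low HDM 2, B7hi saline 1, B7hi saline 2 and B7low saline 1. Without the last of these the log2 difference was -0.36 (edgeR, adjusted p = 0.28).

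Ddit3 encodes CHOP, a transcription factor linked to cell death under lasting ER stress. It had 22.5, 19.6 and 19.9 CPM in B7hi HDM, 44.7, 46.8 and 39.8 CPM in B7low HDM, 19.6 and 25.1 CPM in B7hi saline, and 54.2 and 28.4 CPM in B7low saline. All B7hi libraries lay at or below 25.1 CPM and all B7low libraries at or above 28.4 CPM, so the populations did not overlap. The averaged log2 difference was -0.97 ± 0.28 (edgeR, adjusted p = 0.034), which was -1.07 ± 0.36 with HDM (adjusted p = 0.14) and -0.87 ± 0.44 with saline (adjusted p = 0.27). The averaged call was lost with library size alone, at -0.85, with no count filter, at -0.93, and without any 1 of B7hi HDM 3, B7low HDM 1, B7low HDM 2, B7hi saline 1, B7hi saline 2 and B7low saline 1, where the log2 differences ran from -1.07 to -0.69.

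The other 3 genes of the arm were near the detection limit. Asns encodes asparagine synthetase, which ATF4 raises when amino acids are short. It had 8.13, 5.87 and 15.8 CPM in B7hi HDM, 4.07, 12.4 and 5.06 CPM in B7low HDM, 0.756 and 6.79 CPM in B7hi saline, and 0 counts in both B7low saline libraries. Taking the limit of 3 counts over the B7low saline group, B7low HDM was at least 3.03-fold higher, on 30 counts, and B7hi saline at least 1.69-fold higher, on 14 counts, and neither contrast was called (edgeR, adjusted p = 0.44 and 0.21). Trib3, a pseudokinase gene, had 12 counts over the B7hi HDM group and 1 over B7hi saline, a ratio of 10.9 with a counting interval of 1.61 to 465.2, and 13 counts over B7low HDM against 2 over B7low saline. Chac1, a glutathione-degrading enzyme gene, had at most 6 counts in any library, and neither gene could be tested.

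Some genes outside the arm were also lower in B7hi, as Ppp1r15a was. Immediate early and heat shock genes are switched on within minutes of many stimuli including tissue handling. Of 20 such genes, 11 were lower and 2 higher in B7hi averaged over challenges by the edgeR test (6.08% and 5.8% of all genes). Their summed level was 17981 to 23664 CPM in B7hi HDM and 27429 to 37202 CPM in B7low HDM, and 13278 to 18057 CPM in B7hi saline and 30409 to 41671 CPM in B7low saline, with no overlap between populations. Jun differed by -2.15 ± 0.24 on the log2 scale (edgeR, adjusted p = 1.8e-05), Klf4 by -3.18 ± 0.38 (adjusted p = 3.5e-05) and Fos by -2.47 ± 0.34 (adjusted p = 0.00033). The nuclear RNAs Malat1 and Neat1 were lower as well, by -0.73 ± 0.18 and -0.86 ± 0.19 (edgeR, adjusted p = 0.012 and 0.0075). The 2 of the 20 called higher were Ier3, by 0.87 ± 0.18, and Btg2, by 1.73 ± 0.47 (edgeR, adjusted p = 0.0041 and 0.048). The part of these genes, and of the mast cell markers that were lower in B7hi, in the result for Ppp1r15a, Atf4 and Ddit3 was not tested.

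**Figure D2:**
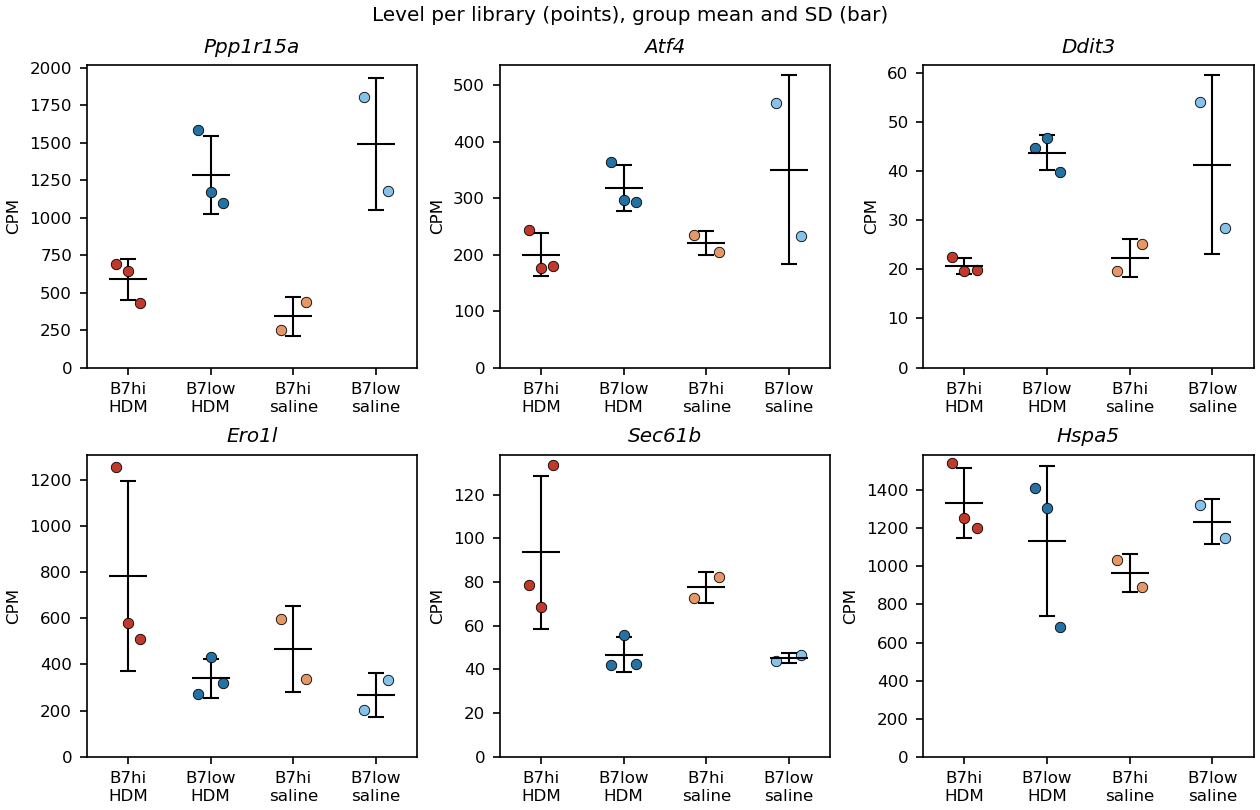
Level in CPM of Ppp1r15a, Atf4, Ddit3, Ero1l, Sec61b and Hspa5 in each library (points), with the group mean and SD (bars; n = 3 for HDM and n = 2 for saline). For Ppp1r15a and Ddit3 all B7hi libraries lie below all B7low libraries, for Sec61b all lie above, and for Hspa5 the groups overlap.

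The 16 folding genes are the chaperones, cochaperones, lectins and disulfide-forming enzymes. Many of them are textbook targets of ATF6 and XBP1. The promoters of the folding genes carried the corresponding sequence far more often than promoters at large, though not all of them did. Those of Ero1l, Dnajb9, Sdf2l1, Pdia4 and P4hb held CCACG and no ER stress element, and that of Pdia3 held neither. In RefSeq windows from 250 bases before to 50 bases after the transcription start (GRCm38.p6), 31 of the 36 members were matched with 32 windows. The ER stress element, searched on both strands as CCAAT and CCACG separated by 9 bases, was in 9 of these 32 windows (28.1%) and in 39 of all 32851 (0.119%). It was in 4 of 7 windows of chaperones and cochaperones, 3 of 7 of lectins and disulfide formation and 2 of 8 of ER-associated degradation, and in 0 of 6 of the ATF4 arm. The ATF4 composite site TGATGNAA was in 4 of the 32 windows (12.5%; 3.97% of all), those of Chac1, Trib3, Asns and Herpud1. The second ER stress element, ATTGG and CCACG separated by 1 base, was in 2 windows (6.25%; 0.0365% of all), those of Herpud1 and Dnajb11. CCACG alone, which lies within both ER stress elements, was in 25 windows (78.1%; 32.8% of all), and TGACGTGG was in 0 (0.676% of all). These matches are a description of the letters in these windows.

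The sites are shown because they are the element that these 9 windows share, 7 of them of folding genes and 2, those of Syvn1 and Derl3, of degradation genes. Each is written 5′ to 3′ in the orientation of the element, with CCAAT and CCACG in capitals.
Hspa5: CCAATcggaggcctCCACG
Hsp90b1, distal: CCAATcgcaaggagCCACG
Hsp90b1, proximal: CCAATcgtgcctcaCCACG
Dnajc3: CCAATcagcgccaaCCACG
Creld2: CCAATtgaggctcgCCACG
Calr: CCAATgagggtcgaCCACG
Canx: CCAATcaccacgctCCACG
Pdia6: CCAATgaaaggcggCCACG
Syvn1: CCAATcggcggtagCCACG
Derl3: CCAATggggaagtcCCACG
The 9 bases between the fixed ends differ in every one of the 10 sites. The site of Hspa5 lies from 65 to 47 bases before the start and that of Syvn1 from 44 to 26 bases before it. Hsp90b1, with 2 sites, has them from 212 to 194 and from 107 to 89 bases before the start.

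The windows of Hspa5 (chr2:34771840-34772139, plus strand), Herpud1 (chr8:94386179-94386478, plus strand) and Ppp1r15a (chr7:45526219-45526518, minus strand) are printed whole, as the most abundant chaperone, the window that holds both kinds of element, and the member with the smallest p between populations. Capitals mark every match to a searched motif on either strand.
Hspa5: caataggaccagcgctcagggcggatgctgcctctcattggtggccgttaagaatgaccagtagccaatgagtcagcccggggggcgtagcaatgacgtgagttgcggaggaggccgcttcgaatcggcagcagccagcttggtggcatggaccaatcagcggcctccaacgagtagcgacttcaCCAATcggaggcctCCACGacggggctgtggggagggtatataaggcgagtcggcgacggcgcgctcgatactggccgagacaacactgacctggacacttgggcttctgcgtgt
Herpud1: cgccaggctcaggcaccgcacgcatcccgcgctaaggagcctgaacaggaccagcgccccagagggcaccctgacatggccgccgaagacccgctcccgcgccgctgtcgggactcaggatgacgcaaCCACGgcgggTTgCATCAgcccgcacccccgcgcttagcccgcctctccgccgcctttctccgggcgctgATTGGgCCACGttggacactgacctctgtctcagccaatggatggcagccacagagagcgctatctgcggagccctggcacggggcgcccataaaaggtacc
Ppp1r15a: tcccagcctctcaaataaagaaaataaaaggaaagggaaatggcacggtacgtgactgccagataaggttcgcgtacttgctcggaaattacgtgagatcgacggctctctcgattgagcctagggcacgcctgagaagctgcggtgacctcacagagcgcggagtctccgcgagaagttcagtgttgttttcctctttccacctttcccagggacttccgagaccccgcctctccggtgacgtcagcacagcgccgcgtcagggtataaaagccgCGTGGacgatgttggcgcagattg
In the Herpud1 window the ATF4 composite site, on the minus strand, lies from 112 to 105 bases before the start and the second ER stress element from 52 to 42 bases before it. The Ppp1r15a window held a single CCACG match, on the minus strand after the start, and none of the longer motifs.

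None of the 9 chaperones and cochaperones was called between populations. Hspa5, the master chaperone of the ER and the gene most used as a readout of the response, had 1545, 1255 and 1203 CPM in B7hi HDM, 1409.6, 1304 and 682.5 CPM in B7low HDM, 1035 and 894 CPM in B7hi saline, and 1320.1 and 1150.5 CPM in B7low saline. The populations overlapped with HDM, and with saline both B7hi libraries lay below both B7low libraries. The averaged log2 difference was -0.06 ± 0.21 (edgeR, adjusted p = 0.89).

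Dnajb9 encodes ERdj4, a cochaperone of BiP that represses IRE1. It had 147, 160.5 and 94.5 CPM in B7hi HDM, 202, 138 and 97.3 CPM in B7low HDM, 59.7 and 97.6 CPM in B7hi saline, and 154 and 154 CPM in B7low saline. The populations were separate with saline and overlapped with HDM, and the log2 difference with saline was -0.96 ± 0.37 (edgeR, adjusted p = 0.14). The other 7 of the branch, Hsp90b1, Hyou1, Dnajb11, Dnajc3, Sdf2l1, Manf and Creld2, had averaged log2 differences from -0.01 for Hyou1 to 0.58 for Creld2, all with overlapping populations and an adjusted p of at least 0.46. Hsp90b1, the ER form of HSP90, had 303 to 664 CPM (median 434) in B7hi and 246 to 655 CPM (median 298) in B7low, over 5 libraries each. Dnajb11, a BiP cochaperone, had 29.4 to 116 CPM (median 99.2) in B7hi and 43.5 to 125 CPM (median 55.0) in B7low. Dnajc3, which encodes the cochaperone and kinase inhibitor p58IPK, had 43.1 to 112 CPM (median 84.6) in B7hi and 30.1 to 123 CPM (median 82.7) in B7low. In all 3 the ranges of the populations overlapped over most of their width. Manf, a secreted factor that binds BiP, was scarcer, at 28.0 to 58.9 CPM (median 45.0) in B7hi and 19.0 to 61.8 CPM (median 32.5) in B7low.

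Among the lectins and disulfide-forming enzymes only Ero1l was called, and it was higher in B7hi. Ero1l encodes the oxidase that reoxidises protein disulfide isomerase and is also raised by low oxygen. It had 1254, 579 and 509.6 CPM in B7hi HDM, 269.7, 432 and 317 CPM in B7low HDM, 598 and 335 CPM in B7hi saline, and 201 and 334 CPM in B7low saline. All B7hi HDM libraries lay above all B7low HDM libraries, with B7hi HDM 1 far above the rest, while with saline B7hi saline 2 and B7low saline 2 were within 1 CPM of each other.

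Ero1l averaged 781 ± 411 CPM in B7hi HDM and 340 ± 83.4 CPM in B7low HDM (SD, n = 3 each), and 466 ± 186 CPM in B7hi saline and 268 ± 94.3 CPM in B7low saline (SD, n = 2 each). B7hi had 2.00 times the B7low level averaged over challenges, at a log2 difference of 1.00 ± 0.28 (edgeR, adjusted p = 0.033). With HDM alone it was 1.20 ± 0.35 (edgeR, adjusted p = 0.096), a call that was made with no count filter and by DESeq2. The averaged call was lost with limma-voom, at 0.92, and without any 1 of B7low HDM 1, B7low HDM 3, B7hi saline 1 and B7low saline 1, where the log2 difference was 0.76 to 0.94.

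P4hb, the most abundant of the protein disulfide isomerases per kilobase, had 489, 350.3 and 651 CPM in B7hi HDM, 382, 556 and 302 CPM in B7low HDM, 332.5 and 341 CPM in B7hi saline, and 332 and 284 CPM in B7low saline. The populations overlapped with HDM and met at 332 CPM with saline, and the averaged log2 difference was 0.20 ± 0.21 (edgeR, adjusted p = 0.61). The remaining 5, Calr, Canx, Pdia3, Pdia4 and Pdia6, had averaged log2 differences from -0.05 for Calr to 0.57 ± 0.23 for Pdia4 (edgeR, adjusted p = 0.94 and 0.12). Canx, the membrane-bound lectin, had 513 to 718 CPM (median 617) in B7hi and 366 to 702.5 CPM (median 447) in B7low, over 5 libraries each. Pdia3, the isomerase that works with the lectins, had 262 to 656 CPM (median 429) in B7hi and 270.5 to 608 CPM (median 299) in B7low. Pdia6 had 89.9 to 199 CPM (median 115.5) in B7hi and 68.6 to 162 CPM (median 78.7) in B7low. In these 3 genes the B7hi median was the higher one and the ranges overlapped widely. Over the 16 folding genes the median averaged log2 difference was 0.32, against 0.03 for all genes tested. Of the 16, 12 were positive, against 5454 of all 10533 genes, and only Ero1l was called. These genes vary together between libraries, as described below, so the count of positive signs is a description.

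Of the 7 tested genes of ER-associated degradation, which removes misfolded protein to the proteasome, none was called between populations. Of their 7 averaged log2 differences 5 were negative, against 5079 of all 10533 genes, and this count of signs is a description. Herpud1, a scaffold of the HRD1 ubiquitin ligase, had 210.0, 143 and 118 CPM in B7hi HDM, 215.5, 167 and 152 CPM in B7low HDM, 154 and 117 CPM in B7hi saline, and 253.5 and 236 CPM in B7low saline. The populations were separate with saline and overlapped with HDM. The log2 difference for Herpud1 was -0.85 ± 0.32 with saline (edgeR, adjusted p = 0.12) and -0.51 ± 0.20 averaged (adjusted p = 0.12), and without B7hi HDM 1 the averaged difference was called.

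The other 6 tested genes of that branch were not called either. They were the ligase gene Syvn1 and its partner Sel1l, the mannosidase-like Edem1, the derlins Derl1 and Derl2, and the selenoprotein gene Selk. Their averaged log2 differences ran from -0.29 ± 0.31 for Syvn1 to 0.24 ± 0.27 for Derl2, with adjusted p of at least 0.48 (edgeR). Derl1 was the most abundant of these per kilobase after Selk, with 112 to 181 CPM (median 146) in B7hi and 136.5 to 207 CPM (median 173.5) in B7low, over 5 libraries each. Sel1l had 63.5 to 85.6 CPM (median 68.5) in B7hi and 70.2 to 117 CPM (median 85.7) in B7low. Edem1, Derl2 and Syvn1 lay between 16.6 and 56.4 CPM in every library, with overlapping populations. Selk had 99.2 to 129 CPM (median 125) in B7hi and 100.3 to 160 CPM (median 138) in B7low, and it has 6 annotated pseudogenes with which short reads could have been shared. Derl3, a derlin abundant in plasma cells, had at most 4 counts in any library and was not tested.

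The translocon, through which new proteins enter the ER, was represented by Sec61b and Sec61a1. Sec61b, a small subunit of the channel, had 78.8, 68.5 and 133.6 CPM in B7hi HDM, 42.0, 55.9 and 42.3 CPM in B7low HDM, 72.6 and 82.5 CPM in B7hi saline, and 43.7 and 46.8 CPM in B7low saline. All B7hi libraries, at 68.5 CPM or above, lay over all B7low libraries, at 55.9 CPM or below. B7hi had 1.86 times the B7low level averaged over challenges, at a log2 difference of 0.89 ± 0.24 (edgeR, adjusted p = 0.022), with 1.01 ± 0.30 with HDM (adjusted p = 0.086) and 0.78 ± 0.38 with saline (adjusted p = 0.25). The averaged call was lost without any 1 of B7hi HDM 3, B7hi saline 1, B7hi saline 2 and B7low saline 1, where the log2 difference was 0.70 to 0.94. Sec61a1, the pore subunit, had 176 to 307 CPM in B7hi and 189 to 254 CPM in B7low over 5 libraries each, and the averaged log2 difference of 0.19 ± 0.19 was not called (edgeR, adjusted p = 0.58). In all, 1 of the 33 tested members was higher without overlap between populations and 2 were lower, against the 4.46% and 4.94% of all genes.

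**Figure D3:**
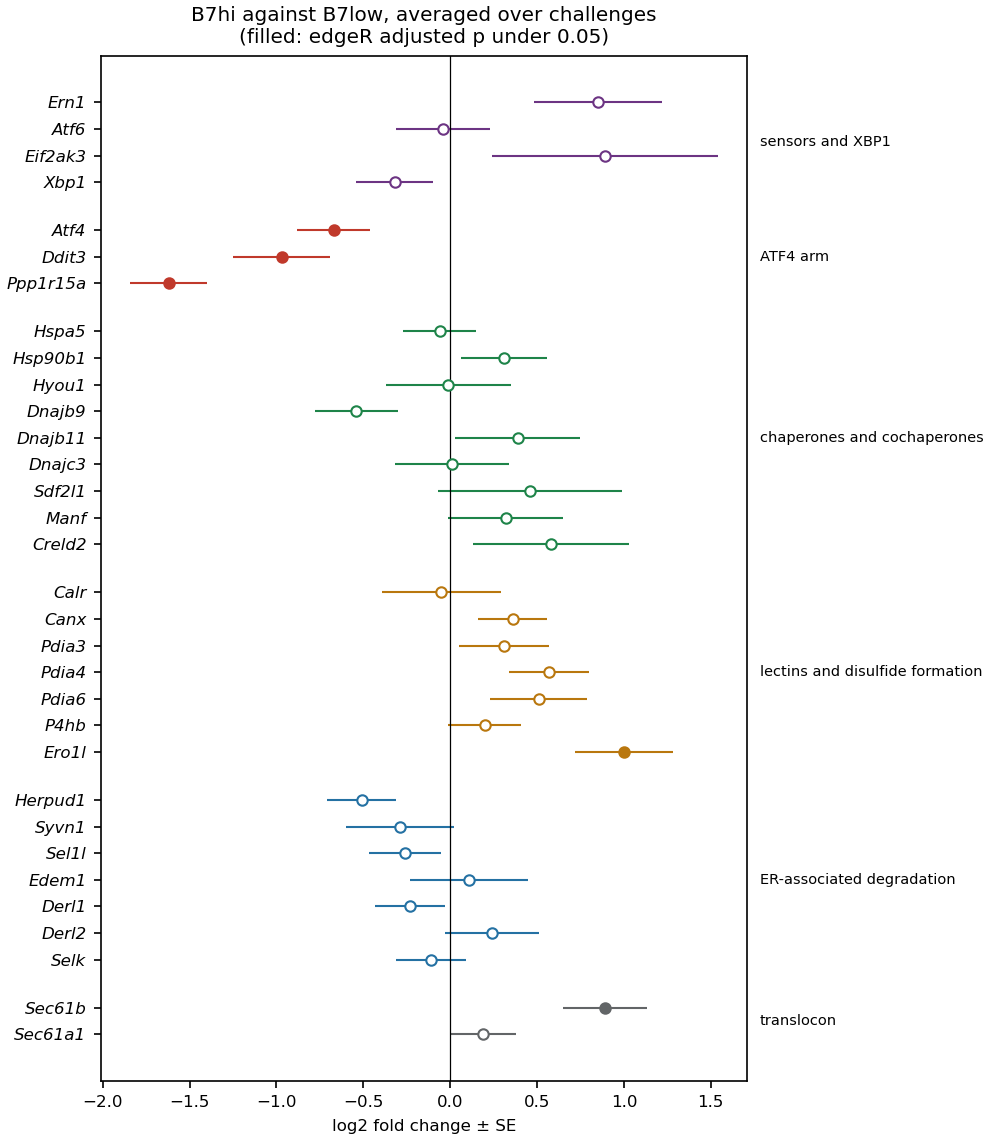
Log2 fold change ± SE of 32 tested members for B7hi against B7low averaged over challenges, by branch, with filled points where edgeR's adjusted p was under 0.05. The filled points are Atf4, Ddit3 and Ppp1r15a on the negative side and Ero1l and Sec61b on the positive side; Asns, with 0 counts in B7low saline, is not drawn.

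For HDM against saline no member passed the threshold. With edgeR, 0 of 33 were called for HDM against saline in B7hi, in B7low or averaged over populations, where 1 gene of 10533 (0.00949%) was called in each. At an unadjusted p of 0.05 edgeR passed 2, 3 and 4 members, DESeq2 2, 3 and 5, and limma-voom 3, 1 and 3, in the order B7hi, B7low and averaged, and both of these tools also called 0 members after adjustment. Over all genes the unadjusted share with edgeR was 4.13% in B7hi, 9.08% in B7low and 6.47% averaged. With DESeq2 and limma-voom that share was not counted, here or for the interaction, so their member counts have no background beside them. The interaction, in which the B7low response to HDM is taken from the B7hi response, was called for 0 members and 0% of all genes, with 1 member (Ppp1r15a) and 8.55% of all genes at an unadjusted p of 0.05 by edgeR and 1 member each by DESeq2 and limma-voom.

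The fitted HDM differences of the folding genes were nonetheless mostly above 0. Averaged over populations all 16 were positive, from 0.11 to 1.33 with a median of 0.45, against a median of 0.05 over all genes tested, and 26 of the 33 tested members were positive. In B7hi 15 of the 16 were positive with a median of 0.37, and in B7low 14 of the 16 with a median of 0.47. Of all 10533 genes tested, 5854 were positive averaged over populations, 5432 in B7hi and 5476 in B7low. The folding genes share libraries and vary together, as described below, so the count of positive signs is a description of these 10 libraries.

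Sdf2l1, a component of the BiP chaperone complex, had the largest averaged difference among the folding genes and was singled out after its values were seen. It had 34.4, 27.4 and 77.4 CPM in B7hi HDM and 9.07 and 31.8 CPM in B7hi saline, and 14.9, 76.1 and 20.9 CPM in B7low HDM and 14.0 and 13.4 CPM in B7low saline. B7hi saline 2 lay within the B7hi HDM range, while in B7low every HDM library lay above both saline libraries, though B7low HDM 1 did so by under 1 CPM. The averaged log2 difference was 1.33 ± 0.54 (edgeR, adjusted p = 0.7). With no count filter Sdf2l1 was called, and this was the single member called for HDM in any alternative.

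Pdia4, an ER thioredoxin-like isomerase, differed by 0.90 ± 0.34 in B7low (edgeR, adjusted p = 0.44), with 122, 168.5 and 117 CPM in B7low HDM and 80.4 and 65.2 CPM in B7low saline, without overlap. P4hb differed by 0.50 ± 0.21 averaged over populations (edgeR, adjusted p = 0.71), and in B7hi all 3 HDM libraries lay above both saline libraries. Hspa5 differed by 0.47 ± 0.30 in B7hi (edgeR, adjusted p = 1), again with all HDM libraries above both saline libraries, and its HDM libraries in B7low lay above, between and below the saline ones. Dnajb9 differed by 0.75 ± 0.34 in B7hi (edgeR, adjusted p = 1), with 147, 160.5 and 94.5 CPM with HDM against 59.7 and 97.6 CPM with saline. The share of all genes whose HDM and saline libraries separate within a population was not counted, so these separations are a description.

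Ppp1r15a showed the smallest interaction p among the members. HDM against saline was 0.78 ± 0.32 in B7hi (edgeR, adjusted p = 1), where all HDM libraries but B7hi HDM 3 lay above both saline libraries, and it was -0.22 in B7low, where the groups overlapped. The interaction was 0.99 ± 0.44 (edgeR, adjusted p = 0.55) and was not called. Atf4 and Ddit3 had HDM differences between -0.14 and 0.09 in either population.

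**Figure D4:**
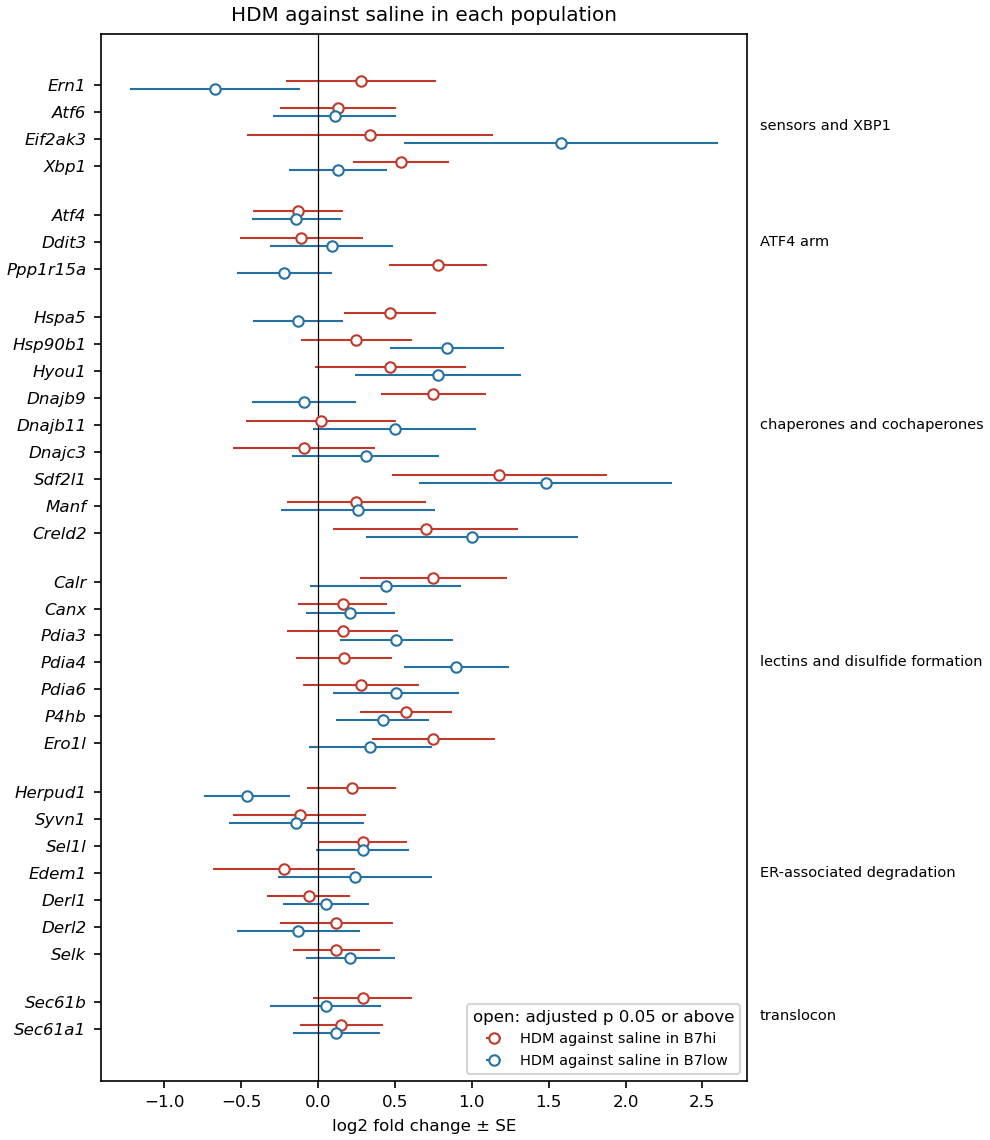
Log2 fold change ± SE for HDM against saline in B7hi (upper of each pair, red) and B7low (lower, blue) for 32 tested members by branch. All points are open because no adjusted p was under 0.05, and the 16 folding genes lie mostly right of 0; Asns is not drawn.

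Within each HDM group the folding genes varied together between libraries. In B7hi HDM, 13 of the 16 (81.2%) were highest in library 3 and 10 were lowest in library 2, while over all genes tested library 3 was highest for 33.6% and library 2 lowest for 39.9%. In B7low HDM, 14 of the 16 (87.5%) were highest in library 2 and 12 were lowest in library 3, while over all genes library 2 was highest for 32.4% and library 3 lowest for 34.1%. Their summed level was 5693, 4000.5 and 5689.6 CPM in B7hi HDM and 4069, 5547 and 2849 CPM in B7low HDM, against 3873 and 3884 CPM in B7hi saline and 3644 and 3257 CPM in B7low saline.

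Leaving out Hspa5, the most abundant, and Ero1l, the one called between populations, the sums were 2894, 2167 and 3977 CPM in B7hi HDM and 2389.6, 3811.5 and 1849 CPM in B7low HDM, against 2241 and 2656 CPM in B7hi saline and 2123 and 1772.5 CPM in B7low saline. In these reduced sums, B7hi HDM 1, B7hi HDM 3 and B7low HDM 2 lay above all saline libraries, and B7hi HDM 2, B7low HDM 1 and B7low HDM 3 did not. In the sums over all 16, every HDM library except B7low HDM 3 lay above all saline libraries, so this order depends on Hspa5 and Ero1l. The median ratio of the highest to the lowest library over the folding genes was 2.17 in B7hi HDM (1.78 over all genes) and 2.22 in B7low HDM (1.76), and it was 1.47 in B7hi saline (1.3) and 1.16 in B7low saline (1.63). Of the 4 tested genes of the ATF4 arm, 3 were highest in B7hi HDM 1 and 1 in B7hi HDM 3, and 3 were lowest in B7hi HDM 2. In B7low HDM, 2 of these 4 were highest in library 1 and 2 in library 2, and 3 were lowest in library 3.

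Hyou1, Calr and Creld2 are given as examples, picked after their values were seen. Hyou1, a large HSP70 relative that exchanges nucleotide on BiP, had 35.0, 29.4 and 72.6 CPM in B7hi HDM and 33.9, 90.4 and 31.6 CPM in B7low HDM. Calr, the soluble lectin chaperone calreticulin, had 154, 117 and 251 CPM in B7hi HDM and 133, 284 and 74.6 CPM in B7low HDM. Creld2, a cysteine-rich folding factor, had 20.0, 52.8 and 80.8 CPM in B7hi HDM and 16.3, 61.8 and 32.2 CPM in B7low HDM. In each of the 3, library 3 of B7hi HDM and library 2 of B7low HDM stood highest, and the order of the others differed by gene.

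Depth and markers of other cells were set beside this order of the libraries. B7hi HDM 2, lowest for 10 of the 16, had the fewest counts (525983) and the highest Kcnq1ot1, whereas B7low HDM 3, lowest for 12, had 1572427 counts. Plasma cells are rich in ER folding proteins, and their 6 markers in the file summed to 10.6, 5.87 and 93.8 CPM in B7hi HDM, 48.8, 24.7 and 6.32 CPM in B7low HDM, 9.07 and 297 CPM in B7hi saline, and 5.25 and 35.1 CPM in B7low saline. In B7hi HDM the plasma cell sum was highest in library 3, as the folding genes were, and in B7low HDM it was highest in library 1. With saline it was highest in B7hi saline 2, whose folding sum was 3884 CPM against 3873 CPM in B7hi saline 1, or 2656 against 2241 CPM without Hspa5 and Ero1l. In B7hi HDM 3 the list's members were Igj at 65.8, Prdm1 at 13.7, Irf4 at 7.53, Sdc1 at 3.42, Mzb1 at 2.05 and Tnfrsf17 at 1.37 CPM, and Mzb1 was at 0 in 6 of the 10 libraries. T cell markers summed to 6.88, 13.7 and 104.8 CPM in B7hi HDM and 1.36, 6.5 and 3.16 CPM in B7low HDM. With saline they summed to 3.02 and 154 CPM in B7hi and 6.99 and 5.02 CPM in B7low. In each HDM group the T cell sum was highest in the library where most folding genes were. In B7low HDM, however, these sums were low beside the limits of 3 counts, which were 4.07, 1.95 and 1.9 CPM. B cell markers summed to 5.63, 17.6 and 19.2 CPM in B7hi HDM, highest in library 3. In B7low HDM they summed to 565, 362 and 79.0 CPM, highest in library 1. The part of depth and of other cell types in the spread was not tested.

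**Figure D5:**
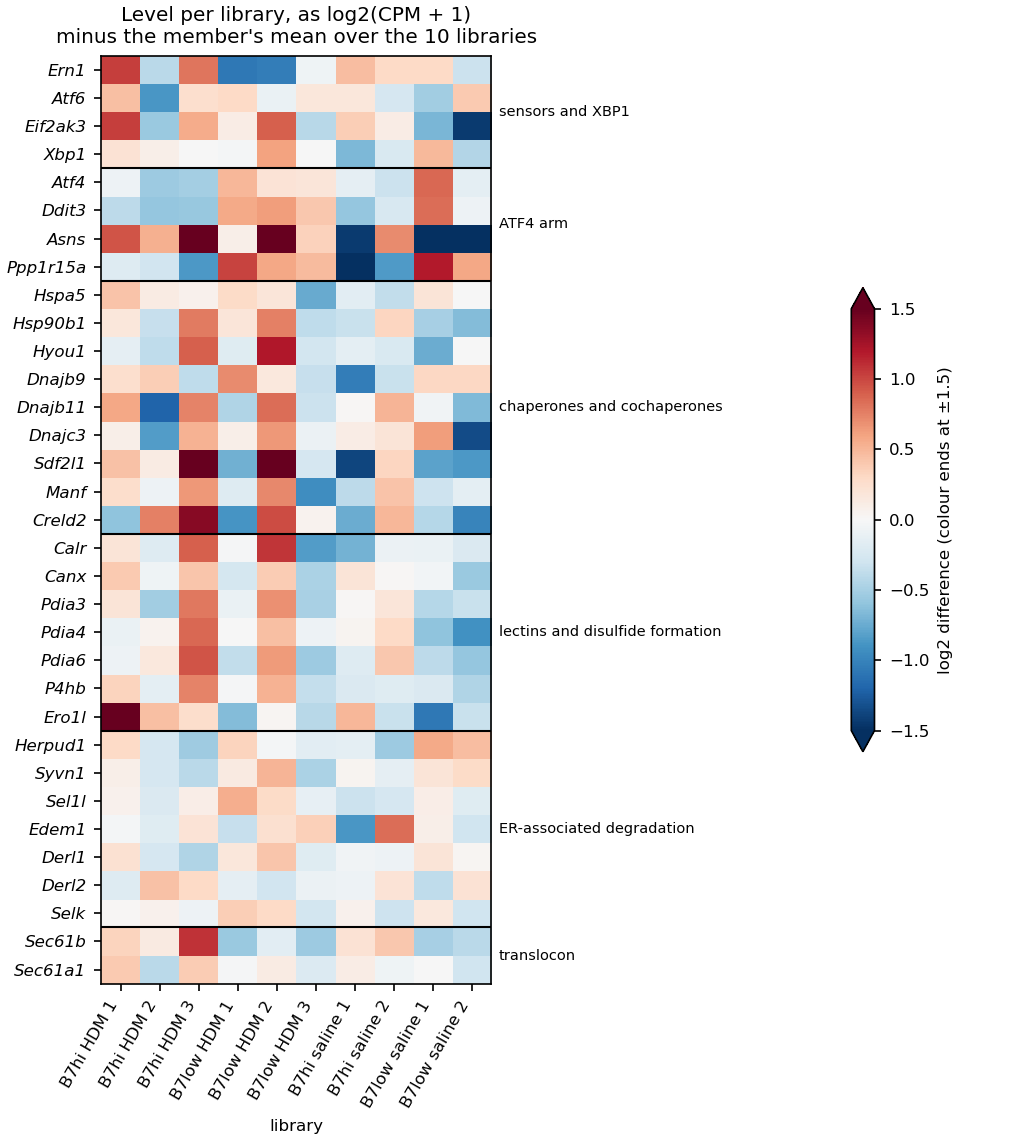
Level of the 33 tested members (rows, by branch) in the 10 libraries (columns), as log2(CPM + 1) minus the member's mean, with red above and blue below it and colours ending at 1.5 either way. Library B7hi HDM 3 and library B7low HDM 2 are red across most of the chaperones, lectins and disulfide-forming enzymes, and Ppp1r15a, Atf4 and Ddit3 are blue in the B7hi and red in most B7low libraries.

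Genes of the wider pathway gave few further calls. These were 175 genes in 7 lists on folding enzymes, degradation, translocation, ER to Golgi transport, the integrated stress response, eIF2 regulation and other membrane transducers. Of the 156 tested, 5 were higher and 5 lower in B7hi averaged over challenges (edgeR), against 5.8% and 6.08% of all genes. The lists were thus not called more often than genes at large, and 0 were called for HDM. Fkbp9, an ER peptidyl-prolyl isomerase, had 4.38, 3.91 and 8.22 CPM in B7hi HDM and 32.5, 20.2 and 17.7 CPM in B7low HDM, with 5.29 and 3.13 CPM in B7hi saline and 50.7 and 35.1 CPM in B7low saline. The populations did not overlap, and the averaged log2 difference for Fkbp9 was -2.67 ± 0.41 (edgeR, adjusted p = 0.00041). Ubxn4, an ER anchor for the ATPase p97 in degradation, was higher in B7hi by 1.07 ± 0.20 (edgeR, adjusted p = 0.0018), with 180.1 to 284 CPM in B7hi and 76.9 to 130.1 CPM in B7low over all libraries.

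The remaining degradation, trafficking and transducer genes called were Os9 (0.62 ± 0.18), a lectin for misfolded glycoproteins, Vimp (-0.97 ± 0.24), a selenoprotein of the p97 complex, the cargo receptor gene Mcfd2 (-0.86 ± 0.26) and the membrane-bound transcription factor gene Creb3l1 (-1.24 ± 0.33), each as a log2 difference averaged over challenges with its SE (edgeR, adjusted p from 0.015 to 0.04). Eif2s1, which encodes eIF2α itself, was higher by 0.68 ± 0.19 (edgeR, adjusted p = 0.028), with 158 to 194 CPM in B7hi and 85.4 to 142 CPM in B7low.

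Of 28 tested genes of the integrated stress response and amino acid metabolism, edgeR called 2 higher and 1 lower in B7hi averaged over challenges. Over all genes these shares were 5.8% and 6.08%. At an unadjusted p of 0.05, 5 of the 28 were higher and 4 lower, where 1430 and 1277 of all 10533 genes were. Psat1, a serine synthesis enzyme that ATF4 is known to raise, had 30.6, 64.6 and 130.1 CPM in B7hi HDM and 9.49, 39.0 and 11.4 CPM in B7low HDM, with 82.4 and 103 CPM in B7hi saline and 5.25 and 15 CPM in B7low saline, a log2 difference of 2.51 ± 0.51 (edgeR, adjusted p = 0.0073). Cars, the cysteinyl-tRNA synthetase gene, had 43.1, 15.7 and 33.6 CPM in B7hi HDM and 9.49, 25.4 and 19.0 CPM in B7low HDM, with 7.56 and 21.4 CPM in B7hi saline and 3.5 and 0 CPM in B7low saline (edgeR, adjusted p = 0.046, higher in B7hi). Gdf15, a stress-induced cytokine gene, was at 0, 3.91 and 2.05 CPM in B7hi HDM and 21.7, 9.76 and 0 CPM in B7low HDM, with 0 in both B7hi saline libraries and 31.5 and 8.36 CPM in B7low saline (edgeR, adjusted p = 0.024, lower in B7hi). Psat1 did not overlap between populations with saline and overlapped with HDM, Cars overlapped with HDM, and Gdf15 was at 0 in 4 of the 10 libraries.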

How the data were processed

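Bulk RNA of 10 libraries of sorted mouse mast cells was read from 1 table of raw counts that the authors deposited, whole numbers per gene symbol with no normalization. Per the submitters' processing notes the build was mm10 and the tools included Cufflinks 2.2.1, TopHat2 2.0.10 and DESeq2. How reads were counted, on which annotation and with or without strand, is not given in the sources used here. With reads of 25 nt, overlapping genes and close copies may share counts. Groups and replicate numbers come from the sample titles.

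Counts were scaled by TMM, filtered with filterByExpr (10533 of 22815 symbols kept) and fitted in 1 edgeR 4.0.16 quasi-likelihood model over 4 groups (R 4.3.3, robust, common biological coefficient of variation 0.359). The 7 contrasts were tested two-sided, with Benjamini-Hochberg adjustment over all genes tested and a threshold of 0.05. The scripts were tested on simulated data. The SE is the log2 difference over the square root of F and is approximate. A group at 0 counts was set at 3 counts, and ratios of low counts carry exact 95% intervals that cover counting error only. Exon lengths and positions come from GENCODE M21 on GRCm38. Within groups, pairs of libraries differed beyond sampling noise (chi-square divided by its degrees of freedom 6.54 to 11).

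The members and lists were chosen with earlier results of these data known. Values are given per library for members called in any contrast, for the member of each branch with the highest level per kilobase and with the smallest p, and for the sensors, Xbp1, Atf4, Ddit3 and Hspa5. Alternatives were DESeq2 size factors, library size alone, DESeq2 1.42.0, limma-voom (3.58.1), no count filter, at least 5 CPM in 2 libraries, only the 2 groups compared, a replicate block, and libraries left out.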

Additional observations from a re-analysis of the deposited data

How the results depend on the processing

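With 2 or 3 libraries a group, the calls depended on single libraries. The count of members called for B7hi against B7low with HDM (1) was 2 with the DESeq2 test and with no count filter, which added Ero1l, 0 without both B7low saline 2 and B7hi HDM 2, and 0 to 1 with 1 library left out. Averaged over challenges (5) it was 3 with library size alone (without Atf4 and Ddit3), which also moved the median of all genes to 0.15 on the log2 scale from 0.029, 3 with the replicate block (without Ddit3 and Ero1l), and 1 to 6 with 1 library left out (1 without B7hi saline 1 or B7low saline 1). For HDM against saline averaged over populations (0) it was 1 with no count filter. The counts with saline (1) and for HDM in each population and the interaction (0) did not move in the 18 or 19 alternatives run for each. No log2 difference of a called member changed sign in any alternative. Same-numbered libraries of the populations correlated at 0.022, -0.11 and -0.049 with HDM and 0.041 with saline, so the numbers were not taken to pair them. Depth limited Asns, Trib3, Chac1, Derl3 and Eif2ak3 most.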
